A study of Mus musculus with 20 samples.

Results

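Dendritic cells are the leukocytes that take up antigen and present it to T cells. The 10 genes described here mark their classes and were taken as a given list, by symbol, from the 20636 genes of the deposited table. Batf3, Irf8, Wdfy4, Xcr1 and Clec9a belong to the type 1 conventional class (cDC1), Flt3 and Zbtb46 to conventional dendritic cells in general, Cd209a and Clec10a to the type 2 class (cDC2) and Siglech to plasmacytoid dendritic cells (pDC). All 10 were in the table, and 8 of them were among the 16648 genes that passed the minimum level for testing. Xcr1 and Siglech did not pass it and are given by their levels and reads.

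RNA was sequenced from whole pancreatic ductal adenocarcinomas of mice. KPAT tumours carried Trp53 fl/fl and Cdkn2A-Arf fl/fl, KAT tumours Cdkn2A-Arf fl/fl and KPT tumours Trp53 fl/fl, with 5 tumours in each group, numbered separately in the labels. All 3 groups also carried KrasLSL-G12D, the Ptf1aCreER driver, which acts in acinar cells, and Rosa26LSL-tdTomato on both alleles. Every mouse received 5 mg of tamoxifen by gavage daily for 3 days, starting at an age between 8 and 10 weeks, and was kept until it became morbid. Age and tumour stage at collection therefore need not match between groups. Cre acts in acinar cells, so dendritic cells carry the floxed alleles without being the cells the driver targets. The series title places the study in the question of how Arf loss remodels the tumour microenvironment independently of p53, and KAT and KPAT against KPT, and KPAT against KAT, are the comparisons that bear on it.

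Conventional dendritic cells arise from bone marrow precursors that depend on the growth factor FLT3L and its receptor FLT3. The transcription factors IRF8 and BATF3 act together in cDC1, which take up dead cells through the receptor encoded by Clec9a and present their antigens to CD8 T cells, a step that needs WDFY4. cDC2 present antigen mainly to CD4 T cells, and pDC are known for type I interferon. Several of the 10 genes are not exclusive to dendritic cells. Irf8, Wdfy4, Flt3, Batf3 and Clec10a are also used by B cells, macrophages, progenitors or T cells, and Zbtb46 by endothelium.

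RefSeq promoter windows, from 250 bases before to 50 bases after the transcription start (build GRCm38.p6), were found for 9 of the 10 genes, with no entry for Clec10a. Wdfy4, Clec9a and Batf3 are shown because their KAT and KPT levels did not overlap and because Wdfy4 formed the closest pairs with Clec9a and with Batf3 over tumours. Cd209a and Zbtb46 are shown because only their windows held one of the motifs searched, which stands in capitals. The Wdfy4, Batf3 and Zbtb46 windows lie wholly inside the spans that GENCODE gives these genes.
Wdfy4 promoter, chr14:33185017-33185316, minus strand: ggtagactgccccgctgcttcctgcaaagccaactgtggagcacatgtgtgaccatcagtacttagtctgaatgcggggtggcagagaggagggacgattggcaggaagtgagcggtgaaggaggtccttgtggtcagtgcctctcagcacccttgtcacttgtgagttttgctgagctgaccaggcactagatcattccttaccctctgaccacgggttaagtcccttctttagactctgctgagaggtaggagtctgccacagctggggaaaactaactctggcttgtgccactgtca
Clec9a promoter, chr6:129408612-129408911, plus strand: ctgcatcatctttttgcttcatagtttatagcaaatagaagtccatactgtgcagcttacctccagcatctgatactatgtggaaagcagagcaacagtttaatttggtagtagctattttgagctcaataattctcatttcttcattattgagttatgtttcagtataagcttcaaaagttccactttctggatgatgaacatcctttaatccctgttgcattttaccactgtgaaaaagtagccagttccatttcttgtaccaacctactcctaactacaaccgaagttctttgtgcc
Batf3 promoter, chr1:191098164-191098463, plus strand: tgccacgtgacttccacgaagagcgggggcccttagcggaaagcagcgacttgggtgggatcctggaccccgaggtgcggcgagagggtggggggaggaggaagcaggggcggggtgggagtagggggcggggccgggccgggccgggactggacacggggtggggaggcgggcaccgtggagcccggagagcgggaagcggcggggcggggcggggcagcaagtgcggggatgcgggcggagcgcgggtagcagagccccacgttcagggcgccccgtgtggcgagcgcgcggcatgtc
Cd209a promoter, chr8:3748935-3749234, minus strand: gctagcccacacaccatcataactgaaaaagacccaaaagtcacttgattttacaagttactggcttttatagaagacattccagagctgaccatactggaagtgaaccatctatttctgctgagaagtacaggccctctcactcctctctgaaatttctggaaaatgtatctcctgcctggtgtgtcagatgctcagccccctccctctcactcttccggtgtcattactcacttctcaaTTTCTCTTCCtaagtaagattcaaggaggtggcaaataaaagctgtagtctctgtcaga
Zbtb46 promoter, chr2:181424339-181424638, minus strand: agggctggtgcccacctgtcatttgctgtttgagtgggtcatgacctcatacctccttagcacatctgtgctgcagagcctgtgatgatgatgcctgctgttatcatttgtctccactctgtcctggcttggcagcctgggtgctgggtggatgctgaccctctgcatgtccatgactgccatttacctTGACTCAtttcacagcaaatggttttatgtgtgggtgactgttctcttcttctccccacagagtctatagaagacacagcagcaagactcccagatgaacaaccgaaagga

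Both strands of the windows were searched for 4 motifs of factors that work in these cells. The AP-1 site TGANTCA, to which BATF3 binds with JUN proteins, occurred in 1 of the 9 genes, as TGACTCA in Zbtb46 with its first base at position -61 from the start, and in 7.81% of all 32851 windows of the same length. The ETS-IRF composite, GGAA and GAAA with any 2 bases between them, occurred in Cd209a, in reverse complement as TTTCTCTTCC at position -9, and in 2.72% of all windows. The IRF element, GAAA repeated after any 2 bases (3.44% of all windows) and the PU.1 site GAGGAAGT (3.20%) occurred in 0 of the 9. A match is a description of the letters in this window and no more.

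The libraries held 14696138 to 26248484 gene-assigned reads. Levels below are in the deposited units, which are reads divided by a factor per library, on a scale near CPM. Trp53, floxed in KPAT and KPT, was at 41.9 ± 9.53 in KPAT, 125 ± 20.03 in KAT and 24.3 ± 1.77 in KPT (SD, n = 5 each). Cdkn2a, the gene of the Cdkn2A-Arf locus that is floxed in KPAT and KAT, had no lower mean there, at 622 ± 289 in KPAT, 426 ± 254 in KAT and 297 ± 47.1 in KPT, and was called in none of the comparisons. The exons removed from that locus are not given in the labels, so its count over the whole gene does not check the label. The 12 genes annotated as ribosomal RNA took 0.711% of the reads in KPAT 5, 2.10% in KAT 2 and 1.03% in KPT 3, against 0.0604% to 0.291% in the other 12 libraries. The library numbers in the labels do not overlap between the 3 groups, so a batch that follows them and genotype cannot be told apart. A level in whole tumours changes with the number of cells and with the RNA per cell, and fewer cells of a type and less RNA per cell cannot be told apart. Each log2 fold change is a difference of mean log2(normalized count + 1), a scale that understates changes of low genes, and its SE and adjusted p come from limma over all tested genes.

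KAT tumours held higher levels of dendritic cell genes than KPT tumours. Of the 8 tested genes, 6 were higher in KAT and 0 lower, where 15.6% of all tested genes were higher, 13.3% lower and 28.9% called in either direction. The 6 were Batf3, Wdfy4, Clec9a, Zbtb46, Cd209a and Clec10a, with log2 fold changes of 1.10 to 3.50. The median of the 8 was 1.86, against 0.03 for all tested genes. KPAT tumours stood between the other groups for several of the genes. Of the 8, only Zbtb46 was called higher in KPAT than in KPT, where 16.5% of all tested genes were called, 9.13% higher and 7.4% lower. In KPAT against KAT 0 of the 8 were called by limma and all 8 fold changes were negative, where 0.0481% of all tested genes were called, 0.036% higher and 0.012% lower. In KPAT against KAT, 5 of the 8 had an unadjusted p under 0.05 (10.8% of all tested genes), edgeR called 0 (0.042% of all) and DESeq2 called 2, Batf3 and Wdfy4 (1.71% of all). Without KPAT 5, KAT 2 and KPT 3, the libraries with the most ribosomal RNA, Clec10a lost its call in KAT against KPT (log2 fold change 1.24, adjusted p = 0.163). Batf3, Wdfy4, Clec9a, Zbtb46 and Cd209a kept theirs. Between KPAT and KPT, Zbtb46 lost its call without these libraries (0.72, adjusted p = 0.137) and Wdfy4 gained one (0.95, adjusted p = 0.0390), and in KPAT against KAT Batf3 gained one (-2.40, adjusted p = 0.0418).

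**Figure D1:**
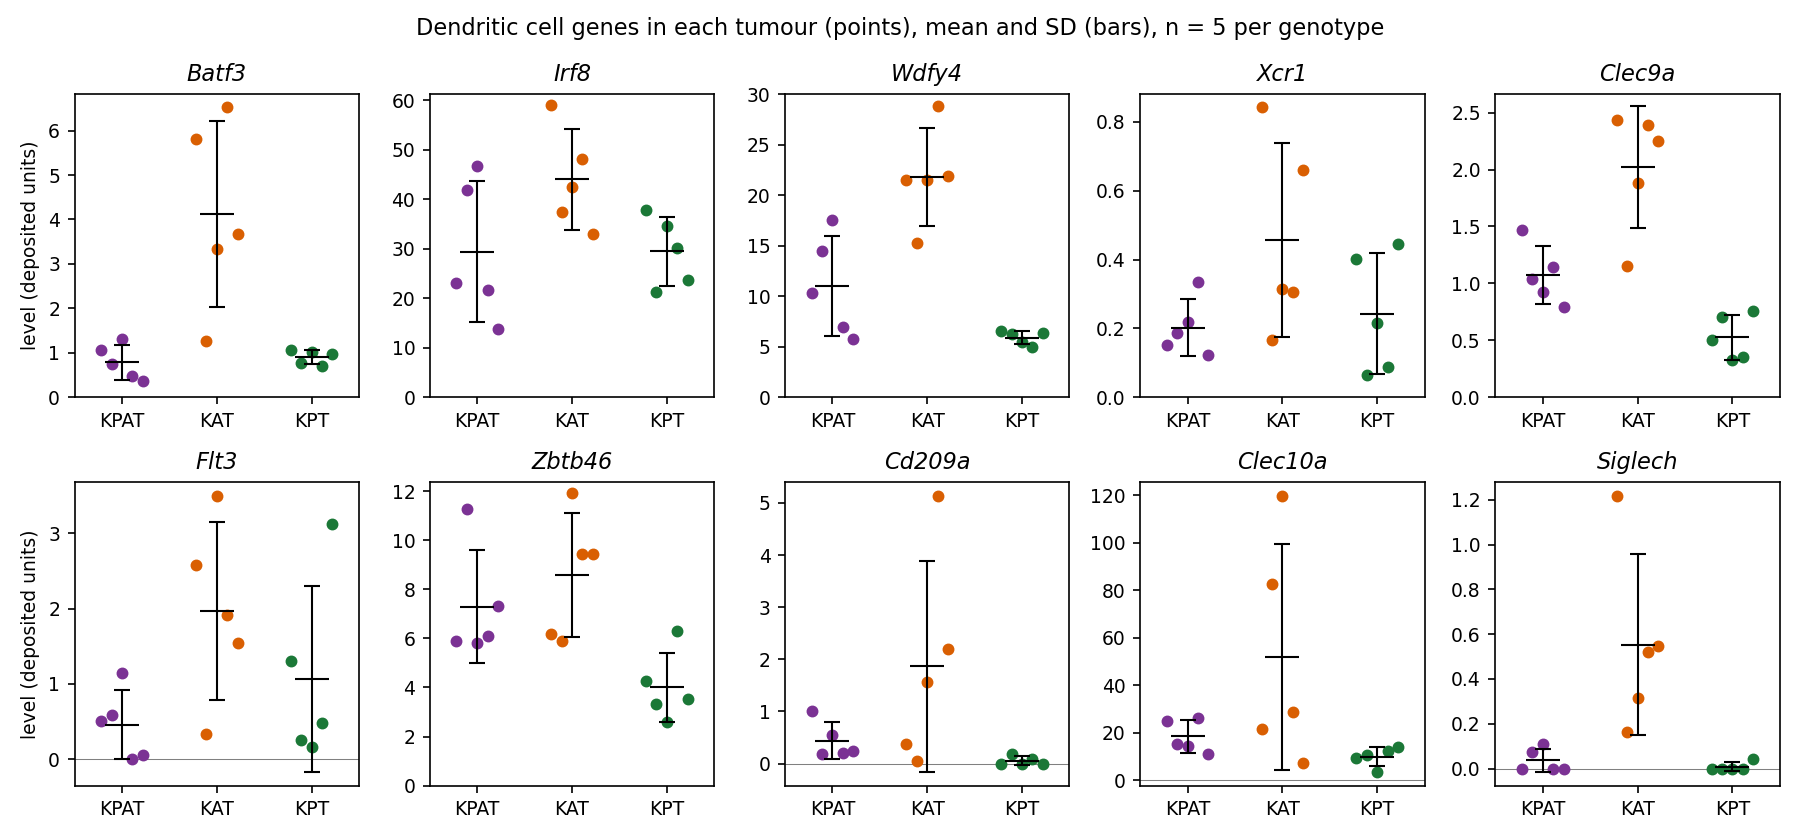
Level of each of the 10 genes in deposited units (y axis, a separate scale for each gene) in each KPAT, KAT and KPT tumour, with the mean and SD of 5 tumours as bars. All 5 KAT tumours lie above all 5 KPT tumours for Batf3, Wdfy4, Clec9a and Siglech, while Irf8, Xcr1 and Flt3 overlap between all 3 groups.

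The cDC1 transcription factor Batf3 (ENSMUSG00000026630, chromosome 1, 191097847 to 191108945) was at 1.06, 0.741, 1.31, 0.470 and 0.365 in KPAT 1 to 5. In KAT 1 to 5 it was at 5.81, 1.26, 3.34, 6.53 and 3.68, and in KPT 1 to 5 at 1.05, 0.767, 1.03, 0.704 and 0.980. All KAT tumours exceeded all KPT tumours, with KAT 2 close to the KPT range, while KPAT spread on both sides of KPT. The mean was 0.789 ± 0.396 in KPAT, 4.12 ± 2.10 in KAT and 0.906 ± 0.159 in KPT (SD, n = 5 each). Batf3 was higher in KAT than in KPT by a log2 fold change of 1.94 (SE 0.44, adjusted p = 0.00529). KPAT against KPT gave -0.31 (95% interval -1.25 to 0.63, adjusted p = 0.667). KPAT against KAT gave -2.25 (SE 0.44), the most negative of the tested cDC1 genes, which missed the threshold over all genes (adjusted p = 0.0882) and passed it without KAT 2 (adjusted p = 0.0121) and in DESeq2 (adjusted p = 0.000115).

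Irf8 (ENSMUSG00000041515, chromosome 8, 120736358 to 120756694), the lineage factor of cDC1 that macrophages and B cells also use, was at 23.1, 41.9, 46.8, 21.6 and 13.7 in KPAT 1 to 5. It was at 59.0, 37.3, 42.3, 48.2 and 32.9 in KAT 1 to 5 and at 37.7, 21.2, 34.5, 30.1 and 23.7 in KPT 1 to 5. The 3 groups overlapped, and none of the comparisons passed. The log2 fold change was -0.11 for KPAT against KPT (95% interval -0.74 to 0.51), 0.58 for KAT against KPT (-0.04 to 1.21, adjusted p = 0.148) and -0.69 for KPAT against KAT (adjusted p = 0.414). The direction for KPAT against KPT turned in some alternatives, to 0.00805 in edgeR and to 0.13 without KPAT 5.

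Wdfy4 (ENSMUSG00000051506, chromosome 14, 32959547 to 33185508), needed by cDC1 for presentation of cell-borne antigen, was at 10.3, 14.5, 17.5, 6.91 and 5.78 in KPAT 1 to 5. In KAT 1 to 5 it was at 21.5, 15.2, 21.5, 28.9 and 21.9, and in KPT 1 to 5 at 6.52, 6.20, 5.45, 4.93 and 6.37. The KPT tumours lay close together, all KAT tumours were above them, and 4 of the 5 KPAT tumours were too. The mean was 11.0 ± 4.99 in KPAT, 21.8 ± 4.83 in KAT and 5.90 ± 0.678 in KPT (SD, n = 5 each). KAT exceeded KPT by a log2 fold change of 1.86 (SE 0.27, adjusted p = 0.000435). KPAT against KPT gave 0.78 (SE 0.27, adjusted p = 0.0630), which passed without KPAT 4 (adjusted p = 0.0420), without KPAT 5 (0.0244), in edgeR (0.0355) and in DESeq2 (0.0127). KPAT against KAT gave -1.08 (SE 0.27, adjusted p = 0.186; DESeq2 adjusted p = 0.0329).

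Clec9a (ENSMUSG00000046080, chromosome 6, 129408862 to 129424763), the cDC1 receptor for dead cells, was at 1.46, 1.04, 0.926, 1.14 and 0.791 in KPAT 1 to 5. It was at 2.44, 1.15, 1.88, 2.39 and 2.25 in KAT 1 to 5 and at 0.502, 0.703, 0.324, 0.352 and 0.757 in KPT 1 to 5. It was the only one of the 10 genes for which both KPAT and KAT lay wholly above KPT. The share of all tested genes with such a gap was 5.03% for KPAT above KPT and 9.24% for KAT above KPT. Reads were few, 13 to 29 per KPAT library, 21 to 55 per KAT library and 6 to 17 per KPT library. KAT was higher than KPT by a log2 fold change of 1.86 (SE 0.33, adjusted p = 0.00130). KPAT against KPT gave 1.00 (SE 0.33) at an adjusted p of 0.0512 in limma, and it passed without KAT 2 (0.0443), without KPT 5 (0.0358), in edgeR (0.0471) and in DESeq2 (0.0380). KPAT against KAT gave -0.87 (adjusted p = 0.359). Clec9a exons overlap those of Clec1b on the same strand over 184 bases, 5.59% of the Clec9a exon length, so some reads could be assigned to either gene.

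Xcr1 (ENSMUSG00000060509, chromosome 9, 123852315 to 123862029), the chemokine receptor of cDC1, was among the lowest of the genes. It had 3, 5, 4, 5 and 2 reads in KPAT 1 to 5, 18, 3, 6, 7 and 12 in KAT 1 to 5, and 8, 1, 4, 2 and 10 in KPT 1 to 5. The groups overlapped. Pooled over libraries the ratio was 0.782 for KPAT against KPT (95% interval 0.407 to 1.48), 1.83 for KAT against KPT (1.10 to 3.11) and 0.428 for KPAT against KAT (0.237 to 0.744). These intervals cover counting error only and leave out the spread between tumours. With no minimum level, limma gave 0.84 for KAT against KPT (SE 0.51, adjusted p = 0.241).

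Flt3 (ENSMUSG00000042817, chromosome 5, 147330741 to 147400489), the receptor for the dendritic cell growth factor FLT3L, varied widely among tumours of one genotype. It was at 0.505, 0.593, 1.14, 0 and 0.0608 in KPAT 1 to 5, where KPAT 4 had 0 reads, which allows a level of up to 0.201. In KAT 1 to 5 it was at 2.58, 0.329, 3.50, 1.91 and 1.54, and in KPT 1 to 5 at 1.30, 0.256, 0.162, 0.484 and 3.12. KPT 5 alone was near the highest KAT tumour, and the groups overlapped. None of the comparisons passed, with log2 fold changes of -1.19 for KPAT against KPT (95% interval -3.18 to 0.81), 1.24 for KAT against KPT (-0.76 to 3.24) and -2.43 for KPAT against KAT (-4.42 to -0.43, adjusted p = 0.368).

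Zbtb46 (ENSMUSG00000027583, chromosome 2, 181387762 to 181459426), a transcription factor of conventional dendritic cells that endothelium also expresses, was at 5.91, 11.3, 5.83, 6.11 and 7.30 in KPAT 1 to 5. It was at 6.19, 5.87, 11.9, 9.44 and 9.45 in KAT 1 to 5 and at 4.26, 3.33, 2.59, 6.30 and 3.52 in KPT 1 to 5. KPT 4 alone reached into the ranges of the other groups. The mean was 7.28 ± 2.30 in KPAT, 8.57 ± 2.53 in KAT and 4.00 ± 1.42 in KPT (SD, n = 5 each). Zbtb46 was higher in KAT than in KPT by a log2 fold change of 1.10 (SE 0.28, adjusted p = 0.00956). That difference was called in all 15 analyses that left out 1 library and missed under quantile scaling (0.75, adjusted p = 0.0539). It was also missed with the pan-leukocyte, macrophage, B cell or endothelial level as a covariate (endothelial 0.69, adjusted p = 0.184). Zbtb46 was also called higher in KPAT than in KPT, by 0.87 (SE 0.28, adjusted p = 0.0437), a call just inside the threshold. That call was kept in 4 of the 15 analyses that left out 1 library (without KAT 1, KAT 2, KAT 3 or KPT 4) and missed in the other 11, with adjusted p of up to 0.114 without KPAT 2. KPAT against KAT gave -0.23 (95% interval -0.82 to 0.36), the smallest difference of the 8 genes.

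Cd209a (ENSMUSG00000031494, chromosome 8, 3743397 to 3748984), a C-type lectin of cDC2 and of monocyte-derived dendritic cells, was at 1.01, 0.185, 0.545, 0.201 and 0.243 in KPAT 1 to 5. It was at 0.375, 0.0549, 1.57, 5.14 and 2.20 in KAT 1 to 5. In KPT 1 to 5 it was at 0, 0.192, 0, 0.0881 and 0, a total of 5 reads, and a count of 0 allows a level of up to 0.150 in KPT 1, 0.162 in KPT 3 and 0.134 in KPT 5. Most KPAT and KAT tumours were above every KPT tumour, 4 of 5 in each group, with KAT 2 and KPAT 2 inside the KPT range. KAT exceeded KPT by a log2 fold change of 3.50 (SE 0.91, adjusted p = 0.0110). KPAT against KPT gave 2.25 (SE 0.91, adjusted p = 0.101; 0.0467 without KAT 2 and 0.0466 in DESeq2), and KPAT against KAT gave -1.25 (adjusted p = 0.645).

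Clec10a (ENSMUSG00000000318, chromosome 11, 70156197 to 70170834), a galactose-binding lectin of cDC2 and of macrophages, was at 25.0, 15.3, 14.5, 26.4 and 11.0 in KPAT 1 to 5. It was at 21.6, 82.7, 119.8, 28.6 and 7.25 in KAT 1 to 5 and at 9.48, 10.4, 3.51, 12.4 and 14.1 in KPT 1 to 5. KAT 2 and KAT 3 stood far above the other tumours, and KAT 5 lay inside the KPT range. KAT exceeded KPT by a log2 fold change of 1.90 (SE 0.61, adjusted p = 0.0319). It lost its call without KAT 2 (adjusted p = 0.0733), KAT 3 (0.0807), KAT 4 (0.0511), KPT 1 (0.0532) or KPT 3 (0.0783). KPAT against KPT gave 0.94 (95% interval -0.37 to 2.25) and KPAT against KAT gave -0.96 (-2.26 to 0.35). Of the 31-base words of Clec10a transcripts 13.7% also occur in those of Mgl2, a neighbouring lectin gene, so the counts of this pair are uncertain.

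Siglech (ENSMUSG00000051504, chromosome 7, 55768178 to 55778925), a surface lectin of mouse pDC, had 0, 2, 2, 0 and 0 reads in KPAT 1 to 5. It had 26, 3, 6, 12 and 10 reads in KAT 1 to 5 and 0, 0, 0, 0 and 1 in KPT 1 to 5. Every KAT tumour lay above every KPAT tumour and every KPT tumour in level, and it was the only one of the 10 genes with no overlap between KPAT and KAT (1.3% of all tested genes had KPAT wholly below KAT). The pooled ratio of KAT to KPT was 56.6, with a counting interval of 9.77 to 2276. For KPAT against KAT it was 0.0726 (0.0191 to 0.196), and for KPAT against KPT 4.11 (0.407 to 203). With no minimum level, KAT against KPT was called by limma (log2 fold change 3.13, SE 0.51, adjusted p = 0.000870) and by edgeR (adjusted p = 0.00266), where limma called 24.3% and edgeR 23.7% of the 20636 genes. KPAT against KAT missed the threshold there in both (limma -2.73, adjusted p = 0.0615; edgeR adjusted p = 0.157), where 0.0436% and 0.0533% of the genes were called by these tools.

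**Figure D2:**
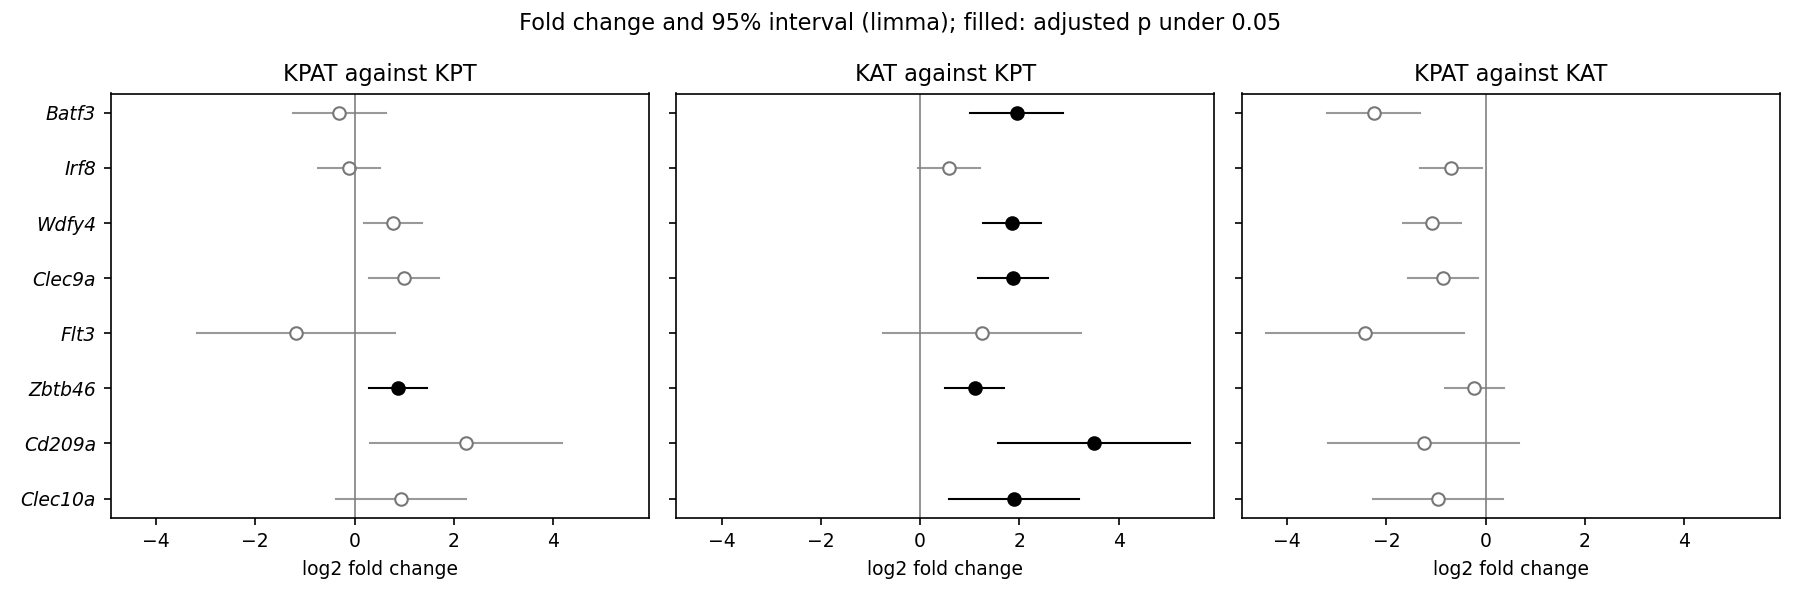
Log2 fold change (x axis) with its 95% interval from limma for the 8 tested genes in KPAT against KPT, KAT against KPT and KPAT against KAT, with filled points for adjusted p under 0.05. In KAT against KPT 6 points are filled and all lie above 0, in KPAT against KPT only Zbtb46 is filled, and in KPAT against KAT all 8 are below 0 and none is filled.

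Per kilobase of exon, the order of the 10 genes' mean levels differed between genotypes. In KPAT, Clec10a (6.36 ± 2.36) was followed by Irf8 (4.17 ± 2.01), Wdfy4 (1.04 ± 0.473) and Zbtb46 (0.856 ± 0.271). In KAT, Clec10a (17.9 ± 16.4) came first, with a spread that covered the level of Irf8 (6.23 ± 1.44), and Batf3 (2.58 ± 1.31) and Wdfy4 (2.06 ± 0.458) followed. In KPT, Irf8 (4.17 ± 0.989) and Clec10a (3.44 ± 1.39) led and did not differ beyond their spread, with Batf3 at 0.567 ± 0.0997 and Wdfy4 at 0.559 ± 0.0643 (SD, n = 5 each). Siglech was the lowest gene per kilobase in KPAT (0.0108) and KPT (0.00263), while Xcr1 was the lowest in KAT (0.103).

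Single tumours were low across many of the genes. KAT 2 was the lowest KAT tumour for 8 of the 10 genes, the exceptions being Irf8 and Clec10a. Its summed B cell marker level was 5.71, against 72.7 to 125 in the other KAT tumours, and its summed T cell marker level was 3.40, against 18.6 to 35.7, while its macrophage (5377) and pan-leukocyte (701.6) sums were the medians of the KAT group. KPAT 5 was the lowest KPAT tumour for 6 of the 10 genes and also had the lowest pan-leukocyte, macrophage, B cell and T cell sums of that group (222.5, 1889, 1.46 and 2.49). KPT 3 was the lowest KPT tumour for 4 of the 10 genes. These 3 libraries are the ones with the most ribosomal RNA reads in their groups. The part of RNA quality and of these cell types in the low levels of these tumours was not tested.

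Markers of other cell types also differed between the genotypes. In KAT against KPT all 10 pan-leukocyte genes were higher (median log2 fold change 1.55), and their summed level was 634 to 964 in KAT and 171 to 352 in KPT with no overlap. Of 12 macrophage genes 10 were higher (median 1.35, summed 3047 to 6423 in KAT and 1153 to 2411 in KPT), and of 10 B cell genes 3 were higher (median 1.66, summed 5.71 to 125 in KAT and 7.26 to 27.4 in KPT). None of 9 tested T cell genes was called (median 1.65, summed 3.40 to 35.7 in KAT and 4.36 to 16.3 in KPT). Of 10 endothelial genes 6 were higher (median 0.92, summed 264 to 795 in KAT and 203 to 375 in KPT). None of 5 tested lymph node stroma genes was called (median 1.84, all 5 above 0, summed 33.9 to 95.2 in KAT and 7.53 to 46.2 in KPT). On that list Ccl21a was at 0 in 8, Ccl19 in 5 and Glycam1 in 5 of the 15 libraries. Ccl19 ran from 0.0469 to 0.653 in KAT and from 0 to 0.108 in KPT. Glycam1 ran from 0 to 7.40 in KAT and from 0 to 0.384 in KPT. Madcam1 ran from 1.04 to 9.29 in KAT and from 0.267 to 3.16 in KPT, and Ccl21a from 0 to 0.313 and from 0 to 0.703. The T cell gene Cd3e was at 0 in 1 library. Of 8 monocyte genes 2 were higher, among them the chemokine receptor gene Ccr2 (3.86), and Plac8 (-1.78) was lower, with a median of -0.08. Of 10 neutrophil genes 2 were higher and 1 lower, with a median of -0.60. In KPAT against KPT, 4 of the 10 pan-leukocyte genes (median 0.83, summed 222.5 to 604 in KPAT), 6 of the 12 macrophage genes (median 0.88, summed 1889 to 3156) and 3 of the 10 endothelial genes (median 0.45, summed 300 to 568) were higher. None of the B cell (median -0.89) or T cell genes (median -0.50) was called there. Of the monocyte genes 1 was higher and 1 lower (median -0.24), and of the neutrophil genes also 1 and 1 (median -1.26). In KPAT against KAT none of the genes on these lists was called, with medians of -0.87 for pan-leukocyte, -0.64 for macrophage, -2.35 for B cell, -2.33 for T cell and -0.38 for endothelial genes.

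Fibroblast and epithelial genes differed too. All 9 fibroblast genes were higher in KAT than in KPT (median 1.62, summed 6514 to 9615 in KAT and 958 to 4062 in KPT, with no overlap), and 6 of the 9 were higher in KPAT than in KPT (median 1.54, summed 5247 to 13865 in KPAT). Of 9 ductal epithelium genes 4 were lower in KAT than in KPT (median -0.44, summed 7151 to 11825 in KAT and 11077 to 19003 in KPT), and 1 was lower in KPAT than in KPT (median -0.46, summed 8013 to 10851 in KPAT). None of 8 acinar genes was called in these 2 comparisons. Of 8 intestine genes 3 were lower in KAT than in KPT (median -1.24) and 2 were lower in KPAT than in KPT (median -1.90). Of 6 tested mast cell genes Gata2 was higher in both comparisons (1.17 in KAT and 1.35 in KPAT), and Klrk1, the only tested NK cell gene, was higher in KAT than in KPT (2.79). In KPAT against KAT none of these genes was called, with medians of 0.20 for fibroblast and 0.20 for ductal epithelium genes. The part of these other cells in the levels of the dendritic cell genes was not tested.

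With the pan-leukocyte level as a covariate, 0 of the 8 genes were called in KAT against KPT, and the number of called genes fell to 209 of all tested, against 4805 without it. KAT and KPT do not overlap in that level, so in this comparison the covariate and genotype largely cannot be told apart. The largest remaining log2 fold change was that of Cd209a (2.57, adjusted p = 0.448), and that of Wdfy4 was 0.46 (adjusted p = 0.449). Set against the pan-leukocyte level as a log2 difference, with no test, Wdfy4 was at -1.68 ± 0.18 in KPAT, -1.41 ± 0.25 in KAT and -1.68 ± 0.25 in KPT (SD, n = 5 each). Batf3 was at -5.41 ± 0.27 in KPAT, -3.97 ± 0.83 in KAT and -4.32 ± 0.24 in KPT. Batf3 itself was not called in KPAT against KPT (log2 fold change -0.31). The pan-leukocyte level that is subtracted was 9.31 ± 0.62 in KPAT and 8.52 ± 0.38 in KPT. Irf8 was at -0.29 ± 0.29 in KPAT, -0.40 ± 0.40 in KAT and 0.61 ± 0.55 in KPT.

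**Figure D3:**
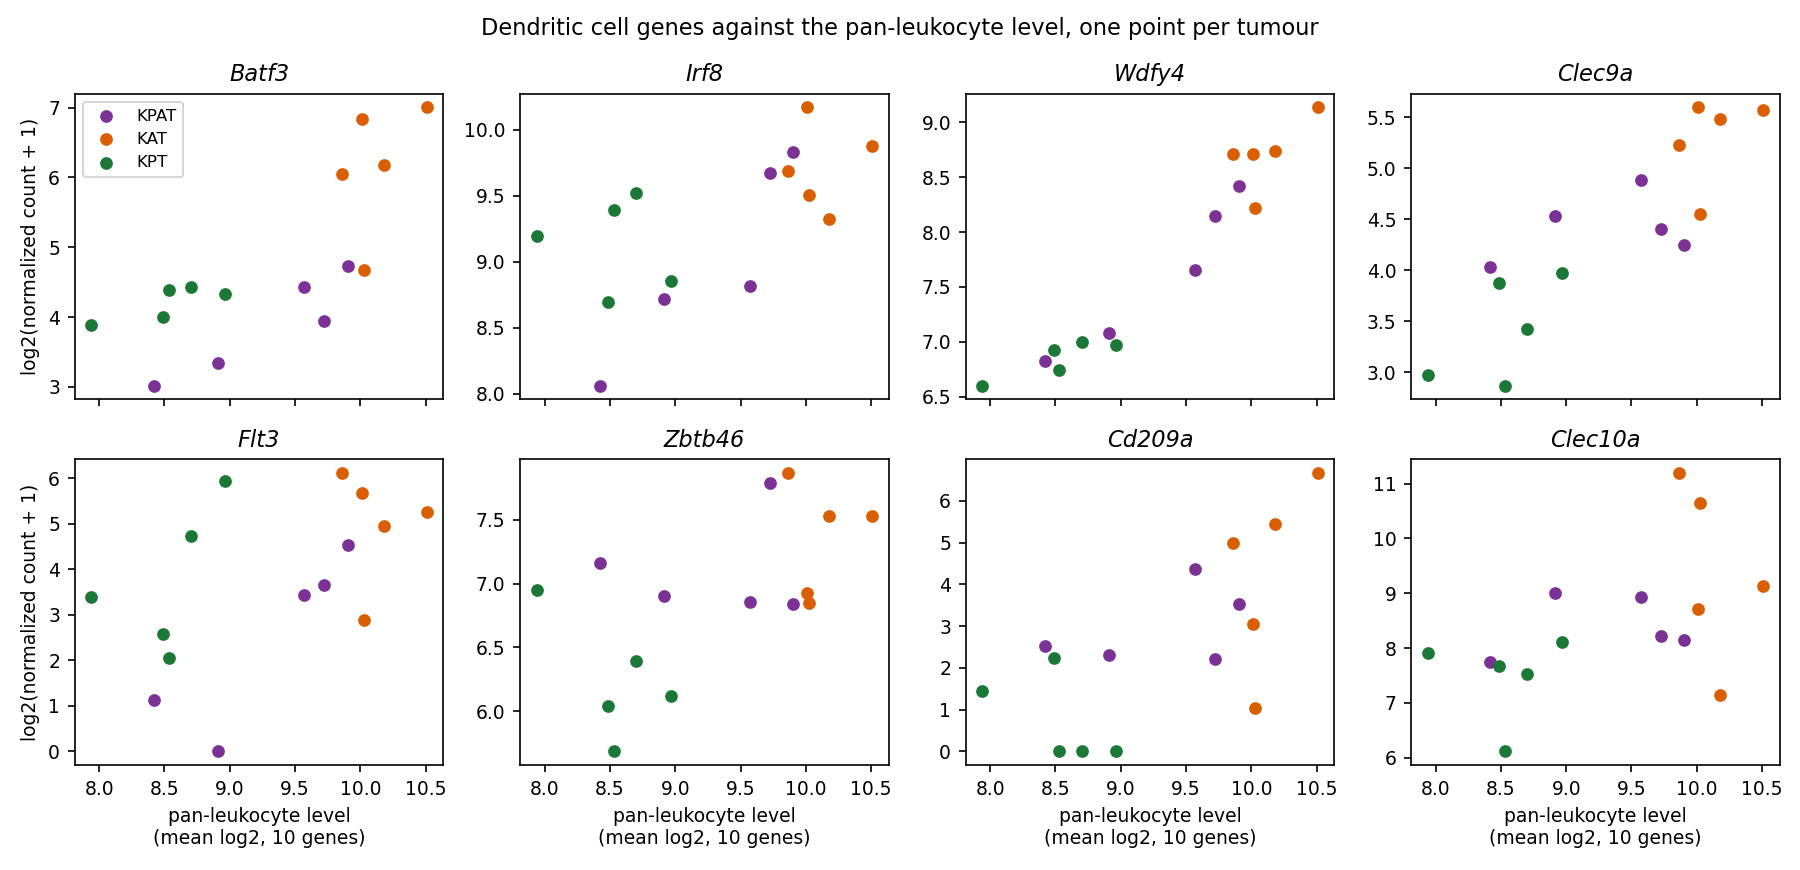
Level of each of the 8 tested genes (y axis, log2(normalized count + 1)) against the pan-leukocyte level (x axis, mean log2 of 10 genes) in each of the 15 tumours, coloured by genotype. Wdfy4 follows the pan-leukocyte level across all 3 groups (Pearson r 0.964), whereas Clec10a is scattered (0.50).

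Over the 15 tumours, the 8 tested genes were positively correlated in all 28 pairs, with a median Pearson r of 0.566, and 14 pairs passed a permutation test with 100000 resamples after adjustment over the 28. By Spearman's rho 13 passed. Without the 2 tumours farthest from the median of the x gene 5 passed, and within genotypes, after the group means were subtracted, 0 passed. The median r was 0.294 within genotypes, where r ran from -0.32 to 0.786. The closest pair was Wdfy4 and Clec9a, with r = 0.865 (permutation adjusted p = 0.000700) and rho = 0.900 (permutation adjusted p = 0.00112). Without KAT 4 and KAT 5 r was 0.812, and within genotypes it was 0.386 (permutation adjusted p = 0.271). Batf3 and Wdfy4 had r = 0.831 (permutation adjusted p = 0.000700), rho = 0.836 (permutation adjusted p = 0.00238) and r = 0.786 within genotypes (permutation adjusted p = 0.0679). None of the 7 pairs of Clec10a passed by r, and 1 passed by rho, with Clec9a.

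Against the levels of 5 marker lists, 28 of 40 relations passed by Pearson's r, 20 by rho, 14 without the 2 farthest tumours and 1 within genotypes. The last was Wdfy4 with the pan-leukocyte level, with r = 0.964 and rho = 0.954 (both permutation adjusted p = 0.000400) and r = 0.869 within genotypes (permutation adjusted p = 0.0108). Zbtb46 with the endothelial level had r = 0.726 (permutation adjusted p = 0.00764), rho = 0.686 (permutation adjusted p = 0.0224), 0.675 without the 2 farthest tumours and 0.486 within genotypes (permutation adjusted p = 0.221). Batf3 with the B cell level had r = 0.886 (permutation adjusted p = 0.000933), rho = 0.629 (permutation adjusted p = 0.0380) and 0.799 within genotypes (permutation adjusted p = 0.121). Clec10a passed with the macrophage level only, with r = 0.679 (permutation adjusted p = 0.0135), rho = 0.682 (permutation adjusted p = 0.0224) and 0.358 within genotypes (permutation adjusted p = 0.416).

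The genes most like the tested cDC1 genes, by mean Pearson r to Batf3, Irf8, Wdfy4 and Clec9a over the 15 tumours among 14228 protein-coding genes, were Plbd1 (0.851), Coro1a (0.844), Syk (0.841), Fcrla (0.836), Ptprc (0.834), Myo1g (0.829), Il21r (0.829) and Rhoh (0.824). Coro1a and Ptprc, which encodes the leukocyte antigen CD45, are on the pan-leukocyte list and Fcrla is on the B cell list. Plbd1 was at 9.26 ± 4.10 in KPAT, 34.4 ± 15.8 in KAT and 7.07 ± 3.10 in KPT (SD, n = 5 each).

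Other genes of the dendritic cell classes were read from further lists. Of 11 other cDC1 genes tested, 5 were higher and 0 lower in KAT than in KPT, among them Rab7b, Naaa, Snx22 and Itgae, which encodes the integrin CD103. Itgae was at 8.30 ± 4.54 in KAT and 2.18 ± 0.725 in KPT (log2 change 1.70, SE 0.52, adjusted p = 0.0254). Naaa, a lipid amidase, was at 64.0 ± 13.2 in KAT and 34.3 ± 8.74 in KPT (log2 change 0.91, adjusted p = 0.00280). The log2 fold change was 1.03 for Rab7b and 1.81 for Snx22. In KPAT against KPT 2 of the 11 were higher, Rab7b (0.89) and Ifi205 (1.85), and 1 was lower. Of all tested genes 9.13% were higher and 7.4% lower. The lower gene was the transcription factor Nfil3, which is needed for cDC1 development in mice. Nfil3 was at 17.5 ± 4.29 in KPAT and 39.2 ± 16.1 in KPT (log2 fold change -1.08, adjusted p = 0.0192). In KPT the means of Batf3 (0.906) and Clec9a (0.528) were far below that of Nfil3, and which cells its reads came from was not tested.

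Of 12 other cDC2 genes tested, 6 were higher and 2 lower in KAT than in KPT. Mgl2, the lectin gene that shares sequence with Clec10a, was at 39.1 ± 21.9 in KAT and 2.51 ± 1.24 in KPT (log2 change 3.99, SE 0.57, adjusted p = 0.000376). Ccl17, a chemokine made by dendritic cells, was at 34.4 ± 13.2 in KAT and 3.91 ± 2.56 in KPT (log2 change 3.35, adjusted p = 0.00136). Sirpa, a receptor shared with macrophages (1.46), and Cd1d1, a lipid-presenting molecule (1.12), were also higher. These 4 were the 4 called in KPAT against KPT, all higher, with log2 fold changes of 2.01 for Mgl2, 2.11 for Ccl17, 0.99 for Sirpa and 0.82 for Cd1d1.

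Of 14 genes of mature migratory dendritic cells, 6 were higher and 0 lower in KAT than in KPT. Ccr7, the receptor that guides dendritic cells to lymph nodes, was at 5.31 ± 2.75 in KAT and 0.927 ± 0.720 in KPT (log2 change 2.55, SE 0.68, adjusted p = 0.0125). Ccl22, a chemokine ligand of CCR4, was at 9.48 ± 6.92 in KAT and 0.726 ± 0.684 in KPT (log2 change 3.71, adjusted p = 0.00436). The costimulatory genes Cd40 (1.79) and Cd86 (1.46) were higher too. B cell marker sums ran from 5.71 to 125 in KAT and from 7.26 to 27.4 in KPT. T cell marker sums ran from 3.40 to 35.7 in KAT and from 4.36 to 16.3 in KPT. The part of B cells, T cells and macrophages in the levels of these genes was not tested. In KPAT against KPT, 1 of the 14 was higher, Cd40 (1.46, adjusted p = 0.00684), and 1 lower, Nudt17 (-1.08, adjusted p = 0.0435). These shares are near the 9.13% and 7.4% of all tested genes.

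Of 12 other pDC genes, 2 were higher and 0 lower in KAT than in KPT, a share near the 15.6% of all tested genes that were higher, and the median log2 fold change was -0.06. Both genes called are also used by B cells. Tlr9, a sensor of DNA in pDC and B cells, was at 5.08 ± 2.35 in KAT and 0.542 ± 0.231 in KPT (log2 change 3.09, SE 0.42, adjusted p = 0.000319). Spib, a transcription factor of pDC and B cells that is also on the B cell list, was at 20.8 ± 15.4 in KAT and 0.787 ± 0.594 in KPT (log2 change 4.47, adjusted p = 0.00999). In KPAT against KPT, Tlr9 alone was called (2.05 ± 0.768 in KPAT, log2 fold change 1.80, adjusted p = 0.0119). The median of the 12 was -0.55 there and 3 were above 0, with Irf7, a transcription factor of the interferon response, at -2.74 (adjusted p = 0.0766) and Bst2, a pDC surface marker, at -1.03 (adjusted p = 0.112).

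Of 21 genes of dendritic cell growth and recruitment, 10 were higher and 2 lower in KAT than in KPT. They included Csf2ra, a chain of the GM-CSF receptor (1.84), and the transcription factors Ikzf1 (1.96), Spi1 (1.64) and Zeb2 (1.34). In KPAT against KPT 7 were higher and 1 lower. Csf2, which encodes GM-CSF, was at 4.72 ± 5.04 in KPAT and 0.598 ± 0.414 in KPT (log2 change 2.51, SE 0.72, adjusted p = 0.0285). Vegfa, the vascular growth factor, was at 228.5 ± 71.0 in KPAT and 478 ± 158 in KPT (log2 change -1.06, adjusted p = 0.0213). Csf2ra (1.18) and Zeb2 (0.91) were higher.

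Among 13 partners and relatives of BATF3 and IRF8, 2 were higher and 2 lower in KAT than in KPT, shares near the 15.6% and 13.3% of all tested genes. Irf4, used by cDC2 and by B and T cells, was at 11.7 ± 6.13 in KAT and 1.29 ± 0.716 in KPT (log2 change 3.09, SE 0.68, adjusted p = 0.00443). Irf5 was higher as well (1.96), while the AP-1 subunit gene Jund (-1.02) was among the lower genes. Irf5 was also higher (1.06) and Jund lower (-0.87) in KPAT than in KPT.

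In KPAT against KAT, 0 of the genes on these 6 lists were called by limma. The gene with the smallest p on each list was Naaa (log2 fold change -0.63, adjusted p = 0.249), Mgl2 (-1.98, adjusted p = 0.248), Cd83 (-2.02, adjusted p = 0.212), Tlr9 (-1.29, adjusted p = 0.302), Ikzf1 (-1.02, adjusted p = 0.248) and Irf4 (-2.25, adjusted p = 0.266). That comparison is also the test of whether the response of KPAT differs from that of KAT against their shared KPT controls, so neither for these lists nor for the 8 tested genes was such a difference called by limma.

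**Figure D4:**
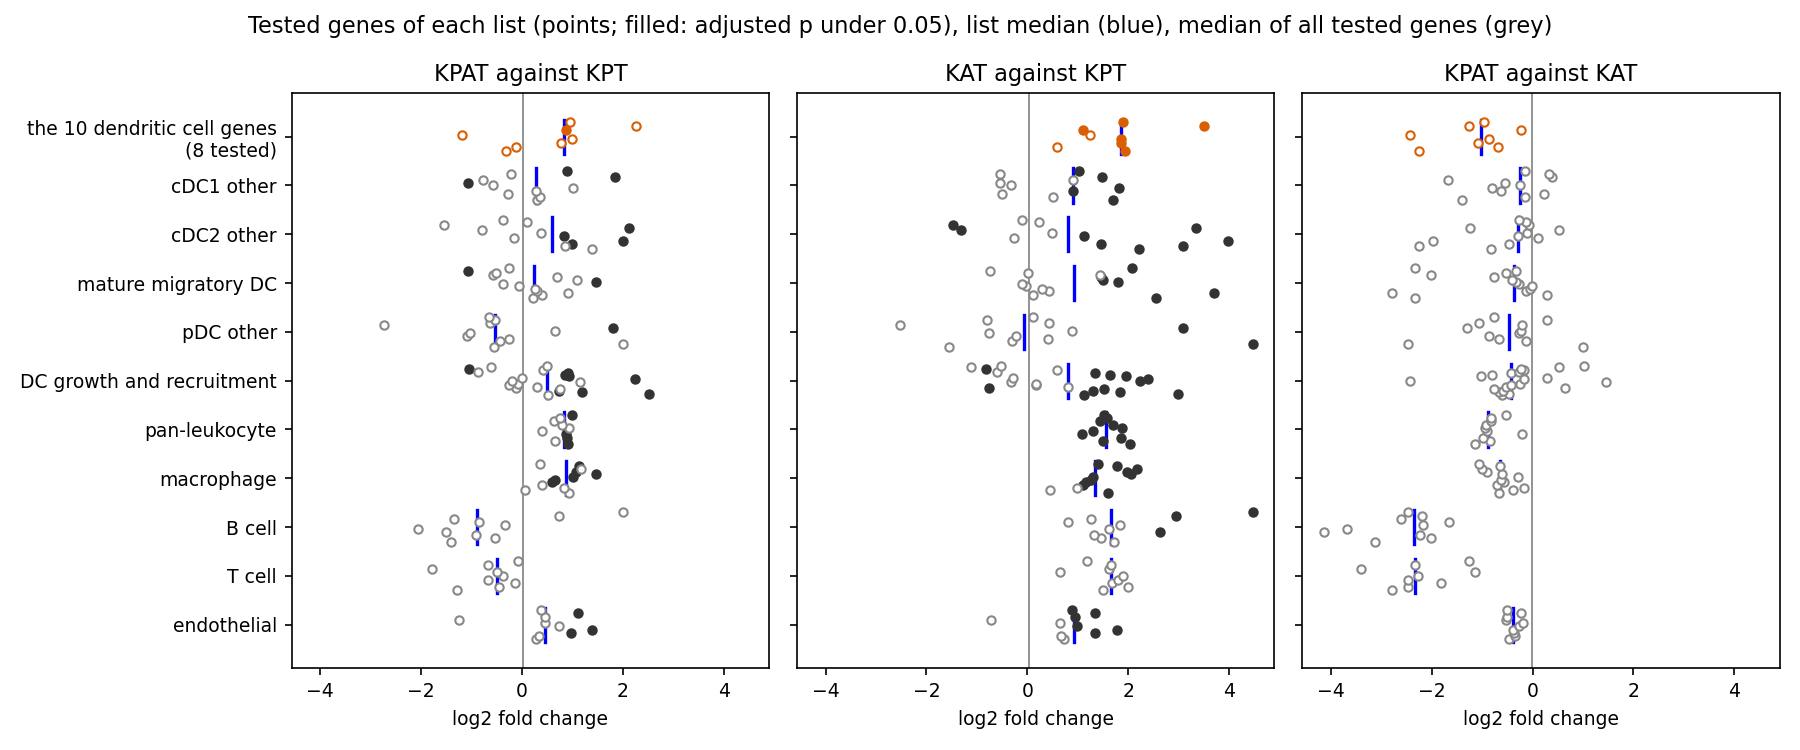
Log2 fold change (x axis) of each tested gene on each list (y axis) in the 3 comparisons, with filled points for adjusted p under 0.05, blue lines for list medians and a grey line for the median of all tested genes. In KAT against KPT the median of the 8 dendritic cell genes is 1.86, beside 1.55 for pan-leukocyte and 1.35 for macrophage genes.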

How the data were processed

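The 10 genes and all gene lists were chosen with earlier results of these data known. Whole-tumour RNA (RNeasy columns, TruSeq libraries, HiSeq4000) was sequenced, per the labels' protocols. The submitters' processing notes name HISAT2 2.0.4 and the build mm10 (GRCm38). The sources used here do not give the counting tool, its annotation, its use of strand or the normalization. The deposited table holds the authors' signal values for 20636 genes in 15 libraries, and 100% of these values came within 0.01 of whole reads once multiplied by a factor per library. Because the deposited scale lies near CPM and the design assumed the scale of reads, all values were multiplied by 19.478 (geometric mean of reads per deposited unit), so that the minimum mean of 10 and the pseudocount of 1 apply to reads. The other 5 samples, the KT group, are not analysed here.

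The log2(normalized count + 1) values of the 16648 genes above the minimum were modelled together in limma 3.58.1 under R 4.3.3 (a mean per genotype, trended eBayes, two-sided tests, Benjamini-Hochberg over all of them, threshold 0.05). The fit was tested on simulated data. edgeR 4.0.16 (quasi-likelihood, TMM) on the recovered reads called 2706 genes in KPAT against KPT (limma 2752), 4684 in KAT against KPT (limma 4805) and 7 in KPAT against KAT (limma 8). DESeq2 1.42.0, other pseudocounts, minima and scalings, covariates, the replicate number as a block and leaving out libraries were run as alternatives. Nothing in the labels says that the tumours came from separate mice beyond their numbers, so p-values measure the spread between these samples. Symbols and coordinates came from GENCODE M21 on GRCm38 (20574 of 20636 IDs had a symbol). Named genes were the 10 genes, up to 4 called genes with the smallest p per list and comparison (or the 1 with the smallest p where none was called), and the 8 genes most correlated with the tested cDC1 genes. Some others were named outside this rule, among them Trp53, Cdkn2a, Irf7, Bst2, Cd3e, Ccl19, Ccl21a, Glycam1 and Madcam1. Some single genes are not reported here. Python 3.11.15 with numpy 2.4.6 served for correlations.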

Additional observations from a re-analysis of the deposited data

Results flagged for a closer look

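Among the 30 sets of 5 tumours (10 genes in 3 genotypes), 2 held a tumour far from the other 4 by Dixon's test at 95%, where chance gives about 1 in 20. Zbtb46 was at 11.3 in KPAT 2, against 5.83 to 7.30 in the other KPAT tumours. Among the KPAT tumours the endothelial sum was also highest in KPAT 2 (567.9 in KPAT 2), and its part in the Zbtb46 level of this tumour was not tested. With the endothelial level as a covariate over all tumours, the log2 fold change of Zbtb46 in KPAT against KPT was 0.64 (limma adjusted p = 0.141). Without KPAT 2 the log2 fold change of Zbtb46 in KPAT against KPT was 0.70 (limma adjusted p = 0.114). Siglech was at 0.0446 in KPT 5, which is 1 read, with 0 reads in the other KPT tumours. With the other values all at 0, any read in a single tumour is flagged, so the rate of 1 in 20 does not apply to that set.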

How the results depend on the processing

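For KPAT against KPT, 1 dendritic cell gene, Zbtb46, was called in the main analysis. The count became 0 with no minimum, under quantile scaling, with only the 2 groups compared, and without KPT 1 and KAT 1. It was also 0 with the pan-leukocyte, macrophage or endothelial level as a covariate. On the deposited scale 0 were called, but Zbtb46 (mean 6.62) was below the minimum there and was not tested. The count became 2 in edgeR, 3 with the B cell level as a covariate and 4 in DESeq2, and 0 to 3 with 1 library left out. All genes called were 2752 in the main analysis, 1811 with only the 2 groups compared, 1735 without KPT 3, KAT 2 and KPAT 5 (the libraries with the most ribosomal RNA reads), 1520 with the pan-leukocyte and 412 with the macrophage covariate, and 1686 to 2896 with 1 library left out. Over all settings that did not leave out 1 library, that total ran from 412 to 3861. For KAT against KPT the 6 genes called became 3 at a minimum mean of 50, 2 on the deposited scale, 2 with the B cell, 2 with the endothelial, 0 with the pan-leukocyte and 0 with the macrophage covariate, and 5 or 6 with 1 library left out. The first 2 of these settings tested fewer genes, and Batf3, Clec9a, Flt3 and Cd209a were below the minimum in both. Zbtb46 was also below the minimum on the deposited scale. All genes called were 4805, and 209 with the pan-leukocyte, 7 with the macrophage, 2972 with the B cell and 2401 with the endothelial covariate, and 3553 to 4836 with 1 library left out. Over all settings that did not leave out 1 library, that total ran from 7 to 5712. For KPAT against KAT the 0 genes called became 2 in DESeq2 and 1 without KPT 3, KAT 2 and KPAT 5, and 0 or 1 with 1 library left out. All genes called were 8, and 4 on the deposited scale, 17 under quantile scaling, 15 with only the 2 groups compared, 284 in DESeq2, 17 without KPT 3, KAT 2 and KPAT 5, 13 with the endothelial covariate, and 7 to 36 with 1 library left out. On the deposited scale the calls for KAT against KPT split into 1382 higher and 1908 lower, against 2599 and 2206 in the main analysis, and quantile scaling gave 1999 and 2431. Where no reason is named, the cause was not tested.

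Of 765 fold changes of single genes under alternatives, 685 kept their direction and side of the threshold and 9 turned their sign, none of them called. Irf8 in KPAT against KPT became 0.00805 in edgeR, -0.31 to 0.13 with 1 library left out (above 0 without KPAT 5), 0.19 without KPT 3, KAT 2 and KPAT 5, and 0.00420 with the B cell covariate. Irf8 (-0.51) and Flt3 (-2.47) turned in KAT against KPT with the pan-leukocyte covariate, Flt3 with the macrophage (-0.45) and B cell (-0.043) covariates, and Cd209a in KPAT against KAT with the B cell covariate (0.22). The correlations of gene pairs fell from 14 called to 5 without the 2 farthest tumours and 0 within genotypes, and those with marker levels fell from 28 to 14 and to 1.

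With the replicate number as a block, 0 dendritic cell genes were called in KPAT against KPT among 2248 genes in all, 5 in KAT against KPT among 4313, and 0 in KPAT against KAT among 7. The numbers do not pair the samples: over 15 same-numbered pairs the correlation of deviations from the group means ran from -0.21 to 0.25, with 5 over 0.1, and 7 of 30 best matches were with a tumour's own number. Depth limits Xcr1, Siglech and Cd209a most, at 90, 62 and 244 reads in all 15 libraries.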
